A study of Mus musculus with 4 samples.

Results

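The genes described here are Socs1, Socs2, Socs3, Cish, Pim1 and Pim2, which are textbook targets of the transcription factor STAT5. They were chosen by name, and all 6 are among the 32265 genes of the deposited tables. They were measured by inDrop, a droplet method that counts transcripts by unique molecular identifiers (UMIs), in cells of the bone marrow of C57BL/6 mice that had been sorted for absence of lineage markers and presence of Sca1 and cKit (LSK cells). The 4 groups were wild-type (WT) mice without treatment, WT mice given imatinib, mice with chronic myeloid leukaemia (CML) without treatment, and CML mice given imatinib. Imatinib blocks the ABL kinase and also KIT, the receptor used in the sort. The labels give its dose as 400 mg/kg every other day by gavage, and its duration as 30 days in one place and 4 weeks in another. The labels give neither the allele that causes the leukaemia nor the age, number or pooling of the animals. With 1 library in each group, differences could be neither checked against replicates nor tested, and every interval below is a 95% interval for counting error only.

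Cytokine receptors of haematopoietic cells signal through JAK kinases, which phosphorylate STAT5, and the BCR-ABL kinase of CML activates STAT5 as well. Among the genes that STAT5 switches on, Cish and the Socs genes encode proteins that bind activated receptors or JAK kinases and dampen the signal, a negative feedback. Pim1 and Pim2 encode serine and threonine kinases that favour growth and survival and are active whenever they are made. Their protein and kinase activity were not measured here. Socs3 is also induced through STAT3, and Pim1 by many mitogenic signals.

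In the GENCODE vM21 annotation of GRCm38, all 6 are protein-coding genes on different chromosomes. Socs1 is at chr16:10782240-10785536 on the minus strand, Socs2 at chr10:95385362-95417180 (minus), Socs3 at chr11:117966079-117970047 (minus), Cish at chr9:107296026-107302784 (plus), Pim1 at chr17:29490753-29496112 (plus) and Pim2 at chrX:7878262-7883432 (plus). The core sequence recognised by STAT5 dimers is TTCNNNGAA, which reads the same on both strands. RefSeq promoter windows (GRCm38.p6, 250 bases before to 50 after a gene's start) were available for 5 of the 6 genes and were searched for it. They follow RefSeq's start sites, which differ from the GENCODE ends: the Cish and Socs3 windows lie inside the GENCODE bounds of these genes. The windows of Cish, Socs3 and Pim1 are shown because they hold 2, 1 and 0 matches, with each match in capitals. They are, in the gene's own direction, Cish at chr9:107296409-107296708 (plus), Socs3 at chr11:117969317-117969616 (minus) and the first of 2 Pim1 windows at chr17:29490535-29490834 (plus).
Cish: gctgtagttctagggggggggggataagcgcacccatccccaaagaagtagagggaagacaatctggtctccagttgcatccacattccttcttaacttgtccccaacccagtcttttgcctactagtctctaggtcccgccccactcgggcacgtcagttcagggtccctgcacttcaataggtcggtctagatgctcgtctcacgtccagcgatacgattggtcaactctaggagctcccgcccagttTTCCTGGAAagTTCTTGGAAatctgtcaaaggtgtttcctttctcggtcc
Socs3: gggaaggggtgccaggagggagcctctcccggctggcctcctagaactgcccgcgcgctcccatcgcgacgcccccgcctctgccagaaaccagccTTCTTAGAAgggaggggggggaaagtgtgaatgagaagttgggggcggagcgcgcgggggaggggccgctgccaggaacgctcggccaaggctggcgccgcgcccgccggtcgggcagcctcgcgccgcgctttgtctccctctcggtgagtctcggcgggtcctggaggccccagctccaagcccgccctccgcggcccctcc
Pim1: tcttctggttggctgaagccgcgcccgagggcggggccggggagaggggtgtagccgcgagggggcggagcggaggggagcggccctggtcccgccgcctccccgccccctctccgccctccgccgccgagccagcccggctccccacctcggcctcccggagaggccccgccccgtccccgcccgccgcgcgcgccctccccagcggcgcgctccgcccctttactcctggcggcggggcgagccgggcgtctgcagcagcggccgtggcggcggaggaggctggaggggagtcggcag
The 2 Cish matches, TTCCTGGAA and TTCTTGGAA, begin at positions 251 and 262 counted from the window's 5′ end and do not overlap. The Socs3 match, TTCTTAGAA, begins at position 97. No match to these letters was found in the windows of Socs1, Pim1 (either window) or Pim2. At least 1 match was present in 8.30% of the 32851 windows of the RefSeq table, and at least 2 in 0.457%. A match describes the letters only; binding was not measured here.

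The WT untreated library held 3030 kept cells, the WT imatinib library 4187, the CML untreated library 3032 and the CML imatinib library 5139, with medians of 3637.5, 1486, 5160.5 and 1198 UMIs per cell. The libraries differed in content in ways that the members' values below have to be read beside. Elane, a granule protease of granulocyte precursors, was seen in 21.3% and 28.9% of the untreated WT and CML cells and in 81.0% and 78.7% of the imatinib WT and CML cells. Hlf, a stem cell transcription factor, was seen in 16.1% and 21.6% of the untreated and 2.75% and 2.24% of the imatinib cells, and Kit, the receptor used in the sort, in 34.6% and 40.5% against 20.9% and 14.2%. A list of 7 neutrophil granule and calprotectin genes summed to 27.0 and 56.2 counts per 1e6 UMIs (CPM) without and 6061 and 9003 CPM with imatinib. A list of 15 early response genes, which rise within minutes of a stimulus and also of tissue dissociation, summed to 5785 CPM in WT untreated, 1611 in WT imatinib, 10899 in CML untreated and 1751 in CML imatinib cells. Xist stood at 2375 CPM in the CML untreated library against at most 95 CPM in the others, and Pim2 is X-linked like Xist. Ddx3y, which lies on the Y chromosome, stood there at 1.504 CPM, against 29.4 to 45.2 CPM elsewhere. In comparisons with the CML untreated library, genotype or treatment and the difference in these sex-linked genes cannot be told apart. The part that these differences play in the values below was not tested, and with whole-library sums, fewer cells of a type and less RNA per cell cannot be told apart. Of the cell names in the file headers, 1134 stood in both the WT untreated (2863 names) and the WT imatinib library (5574 names). Other pairs of libraries shared 80 to 340. Values without such cells are given below for some results only.

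Pim1 stood at 923 CPM in WT untreated, 215 CPM in WT imatinib, 1199.7 CPM in CML untreated and 241 CPM in CML imatinib cells. Pim2 stood at 38.6, 9.46, 34.4 and 10.1 CPM in the same order. The untreated libraries were high and the imatinib libraries low for both kinases, and within each treatment the genotypes were close. Socs3, the feedback inhibitor of IL-6 family and G-CSF receptors, stood at 48.6, 8.61, 94.7 and 11.5 CPM. It was the member with the clearest separation of CML untreated from WT untreated cells.
Cish, the feedback inhibitor first found downstream of the erythropoietin and IL-3 receptors, stood at 21.4, 3.64, 22.9 and 9.22 CPM. Socs2, which restrains growth hormone signalling, stood at 23.6, 5.94, 25.3 and 15.7 CPM. Both were lowest in WT imatinib cells, with CML imatinib cells between that library and the untreated ones. Socs1, an inhibitor of JAK kinases in interferon and cytokine signalling, was the sparsest, with 90, 28, 224 and 53 UMIs, or 6.84, 3.40, 10.5 and 5.56 CPM.

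**Figure D1:**
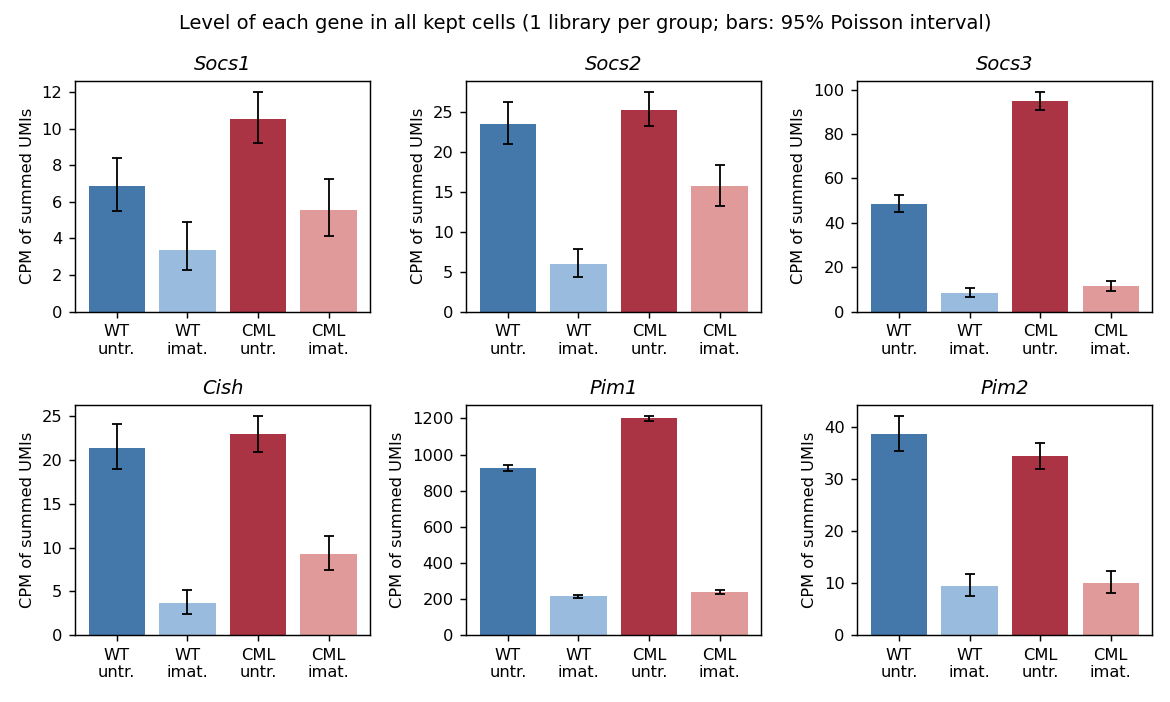
Level of each gene, in CPM of summed UMIs (y axis), in all kept cells of the 4 libraries (x axis), with exact 95% Poisson intervals as error bars and 1 library per group. For every gene both imatinib libraries lie below the untreated library of the same genotype, and Socs2 and Cish are higher in CML imatinib than in WT imatinib cells.

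The first comparison set CML untreated against WT untreated cells. The threshold was a level of at least 10 CPM on at least 50 UMIs in whichever library was higher (genes tested), and a 2-fold difference. None of the 6 members passed it, against 0.729% of 8916 genes that were higher and 0.381% that were lower. Socs3 came nearest, 1.95-fold higher in CML (1.78 to 2.13). In the alternative meant to leave out cells whose names recur in another library, 931 WT and 2355 CML cells were left. Socs3 then stood at 94.1 against 57.1 CPM, a log2 ratio of 0.72. Pim1 was 1.30-fold higher (1.27 to 1.33) and Socs1 1.54-fold higher (1.20 to 1.99). The log2 ratios of Socs2 and Cish, both 0.10, had intervals that include 0 (-0.10 to 0.31 and -0.12 to 0.32) and were -0.06 and -0.07 under trimmed-mean (TMM) scaling, and Pim2 was 1.12-fold lower (log2 ratio -0.17, -0.33 to -0.00). The median log2 ratio of the members was 0.24, beside 0.03 over all genes tested. The early response list, which 8 of 15 genes passed in the same direction with a median of 1.06, moved with Socs3 and Pim1 here.

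In CML mice, imatinib against untreated, 4 of 6 members were at least 2-fold lower and none higher, against 7.96% of 9553 genes lower and 11.5% higher. Under TMM scaling all 6 members were lower, with 16.1% of genes tested lower and 6.44% higher. Socs3 was 8.22-fold lower (log2 ratio -3.04, -3.33 to -2.76), Pim1 4.98-fold lower (4.77 to 5.20), Pim2 3.42-fold lower (2.76 to 4.27) and Cish 2.48-fold lower (1.97 to 3.15). Socs1 was 1.89-fold lower (1.40 to 2.61) and Socs2 1.61-fold lower (1.34 to 1.94), which is short of 2-fold. Under TMM scaling their log2 ratios were -1.24 and -1.01. The median log2 ratio of the members was -1.54, beside 0.01 over all genes tested.

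In WT mice the same treatment gave 5 lower members of the 5 that reached the expression floor, against 6.72% of 9196 genes lower and 8.36% higher (12.1% and 5.59% under TMM scaling). Cish was 5.87-fold lower (4.02 to 8.87), Socs3 5.64-fold lower (4.41 to 7.32), Pim1 4.29-fold lower (4.08 to 4.51), Pim2 4.08-fold lower (3.21 to 5.25) and Socs2 3.97-fold lower (2.93 to 5.48). Without cells whose names recur, Pim2 was less reduced, at a log2 ratio of -1.45 against -2.03 in all kept cells (-2.39 to -1.68). Socs1 was under the floor in both libraries, at 6.84 and 3.40 CPM. The decrease was thus seen in mice without leukaemia as well as in CML mice, and in both genotypes the imatinib library held the larger share of Elane-positive cells and the lower early response sum.

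The imatinib response was then compared between the genotypes by subtracting the WT log2 ratio from the CML one. The difference was 1.30 for Socs2 (0.79 to 1.81) and 1.24 for Cish (0.61 to 1.88), a smaller decrease in CML for both. It was -0.54 for Socs3 (-0.99 to -0.09) and -0.22 for Pim1 (-0.31 to -0.12), a larger decrease in CML, and the intervals for Socs1 and Pim2 included 0. The differences of Socs2 and Cish lay above 0, intervals included, under TMM scaling, in cells with at least 1000 UMIs, without the 5% of cells richest in UMIs, without shared names, and without cells with mature-cell, mast and basophil or T cell markers. Those of Socs3 and Pim1 did not hold throughout: Socs3 was at -0.02 (-0.57 to 0.53) in cells with at least 1000 UMIs, and Pim1 at 0.06 (-0.04 to 0.16) without the 5% of cells richest in UMIs. The last comparison, CML imatinib against WT imatinib, shows the same libraries from the other side. Socs2 was 2.65-fold higher in CML (1.90 to 3.73), the only member past the threshold of the 4 tested, against 3.82% of 9154 genes higher and 0.208% lower. Cish was 2.54-fold higher (1.66 to 3.98) but below 10 CPM in both libraries. As means of single-cell CPM, the log2 ratios were 0.96 for Socs2, short of 2-fold, and 1.75 for Cish. Pim1 was 1.12-fold higher (1.05 to 1.19), but at a log2 ratio of -0.07 under TMM scaling, and the intervals of Socs3 and Pim2 included 0.

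In the CML imatinib library, cells with mast cell and basophil markers held a large part of the Socs2 and Cish UMIs. Such cells were taken as those with at least 3 UMIs from at least 3 genes of a list of 8 that includes the proteases Cpa3, Mcpt8 and Prss34 and the IgE receptor chains Fcer1a and Ms4a2. There were 18 in WT untreated, 141 in WT imatinib, 43 in CML untreated and 229 in CML imatinib cells. Socs2 stood in them at 62.6 CPM (20.3 to 146) in WT untreated, 62.4 CPM (34.1 to 105) in WT imatinib, 184 CPM (140 to 237) in CML untreated and 171 CPM (133 to 217) in CML imatinib cells. These levels are above those of all kept cells in each of the 4 libraries, though the WT untreated interval, on 5 UMIs, includes the level of all kept cells, and the CML libraries are the higher ones under both treatments.
In the CML imatinib library these cells carried 4.22% of all UMIs and 46.0% of the Socs2 UMIs, spread over 30 cells. Cish stood in them at 12.5 (1 UMI), 8.91 (2 UMIs), 137 and 74.5 CPM in the same library order, and in the CML imatinib library they carried 34.1% of its UMIs. Socs1, with 0, 9, 13 and 11 UMIs there, stood at 40.1 CPM in WT imatinib, 40.6 CPM in CML untreated and 27.3 CPM in CML imatinib cells, and 0 of the UMIs in WT untreated cells allows up to 37.6 CPM. Socs3 and Pim2 had at most 8 and 7 UMIs there in a library, at 4.46 to 37.6 and 13.4 to 37.6 CPM.

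Within these cells Socs2 was 2.75-fold higher in CML imatinib than in WT imatinib cells (log2 ratio 1.46, 0.61 to 2.40) and Cish 8.36-fold higher on 30 against 2 UMIs (log2 ratio 3.06, 1.08 to 6.17). Socs2 differed little between CML imatinib and CML untreated cells with these markers (log2 ratio -0.10, -0.63 to 0.42), while Pim1 was 2.30-fold lower there (log2 ratio -1.20, -1.45 to -0.96). The make-up of the CML untreated and CML imatinib cells differed, however. Kit was seen in 72.1% and 25.3% of them and Elane in 18.6% and 50.7%, at median depths of 6236 and 1413 UMIs. Make-up and treatment cannot be told apart in these 2 ratios. With all cells with mast and basophil markers left out of every library, Socs2 stood at 8.86 CPM in CML imatinib and 4.36 CPM in WT imatinib cells. Both are below the 10 CPM floor, at a log2 ratio of 1.02 (0.43 to 1.64), so that no member was past the threshold in that comparison. The difference of the responses was then 1.05 for Socs2 (0.44 to 1.66) and 0.88 for Cish (0.20 to 1.57). In CML imatinib against CML untreated cells all 6 members were then at least 2-fold lower, Socs2 at a log2 ratio of -1.37 and Socs1 at -1.13. The share of all genes lower without these cells is not given here, so this count has no background beside it.

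Cells with T cell markers, by the same rule on a list of 8 genes of the T cell receptor complex and its signalling, were the other place of high Cish. There were 75 in WT untreated and 107 in CML untreated cells, and 3 and 0 in the imatinib libraries. Cish stood in them at 321 CPM (245 to 414) in WT and 280 CPM (230 to 339) in CML untreated cells, and they carried 21.4% and 21.8% of the Cish UMIs of their libraries on 1.42% and 1.78% of all UMIs. Socs2 was high in them too, at 112 CPM in WT (21 UMIs) and 76.7 CPM in CML (29 UMIs), against 23.6 and 25.3 CPM in all kept cells. Socs1 stood at 48.2 CPM (22.0 to 91.5) and 108 CPM (77.9 to 147), and Socs3 at 69.6 CPM (37.1 to 119) and 296 CPM (244 to 357). Socs3 was thus 4.26-fold higher in the CML cells of this kind (log2 ratio 2.09, 1.26 to 3.04). It was also higher in CML untreated cells with plasma cell markers (7.91-fold, 29 against 5 UMIs) and erythroid markers (7.57-fold, 77 against 4 UMIs). With monocyte and granulocyte-monocyte progenitor markers it was 2.55-fold and 2.32-fold higher. With mast and basophil markers it was lower, on 7 against 3 UMIs (log2 ratio -0.78, -2.91 to 1.80). Without the cells with T cell markers Cish stood at 17.0 CPM in WT untreated and 18.2 CPM in CML untreated cells. Its log2 ratio of CML imatinib to CML untreated cells was then -0.98. That is just short of 2-fold, so 3 rather than 4 members were lower in that comparison, again given without a share over all genes. In WT the ratio of Cish was then -2.23, still more than 2-fold lower.

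**Figure D2:**
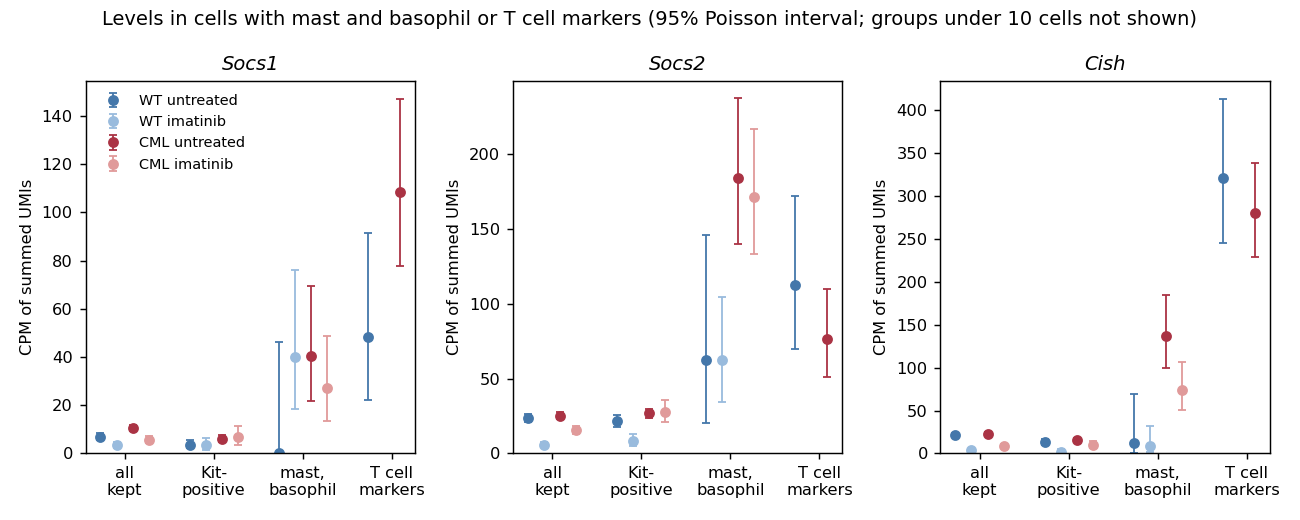
Levels of Socs1, Socs2 and Cish in CPM (y axis) in all kept cells, Kit-positive cells and cells with mast and basophil or T cell markers (x axis), by library, with exact 95% Poisson intervals. Groups under 10 cells are left out. Socs2 reaches 171 to 184 CPM in the CML cells with mast and basophil markers, and Cish 280 to 321 CPM in the untreated cells with T cell markers.

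Kit-positive cells, those with at least 1 UMI of Kit, numbered 1048 in WT untreated, 873 in WT imatinib, 1228 in CML untreated and 731 in CML imatinib cells. A UMI of Kit was also seen in 9 of the 75 WT and 8 of the 107 CML untreated cells with T cell markers, at median depths of 1820 and 2527 UMIs, against 34.6% and 40.5% of all kept cells. The make-up of the class differed with treatment: 25.8% of the WT and 32.5% of the CML untreated Kit-positive cells also held an Elane UMI, against 87.7% and 86.2% with imatinib. The neutrophil list summed within the class to 37.7 CPM in WT and 60.0 CPM in CML untreated cells, and to 4887 and 3241 CPM with imatinib. In WT imatinib against WT untreated, 5 of 5 tested members were lower (9.43% of 8156 genes lower, 6.90% higher), led by Socs3 at 54.8 and 5.44 CPM (10.1-fold, 5.80 to 19.1). In CML, 3 of 5 were lower (12.0% of 8160 genes lower, 9.30% higher), namely Socs3 at 83.3 and 8.58 CPM, Pim1 at 1136 and 183 CPM and Pim2 at 30.0 and 6.20 CPM. Socs2 was level in CML Kit-positive cells, at 26.7 CPM untreated and 27.6 CPM with imatinib, and stood at 21.6 and 8.37 CPM in WT.
The difference of the responses there was 1.41 for Socs2 (0.62 to 2.21) and 1.93 for Cish (0.46 to 3.40). Without cells whose names recur it was 1.14 for Socs2 (-0.05 to 2.33) and 1.04 for Cish (-0.55 to 2.63), and both intervals include 0. Of the CML imatinib Kit-positive cells, 58 of 731 (7.93%) carried mast and basophil markers, against 30 of 873 in WT imatinib. Without them Socs2 stood at 6.64 CPM in CML imatinib and 5.56 CPM in WT imatinib Kit-positive cells, 13 UMIs each. The difference of the responses was then 0.19 for Socs2 (-0.96 to 1.34) and 1.20 for Cish (-0.43 to 2.84). All 5 tested members were then at least 2-fold lower in CML imatinib Kit-positive cells, given without a share over all genes. In the untreated libraries none of the 5 tested members was 2-fold apart in Kit-positive cells, against 1.24% of 8939 genes higher and 0.459% lower; Socs3 was 1.52-fold higher in CML (1.33 to 1.74) and Pim1 1.40-fold higher (1.35 to 1.45).
In CML imatinib against WT imatinib Kit-positive cells, 1 of 2 tested members was higher, Socs2 (3.30-fold, log2 ratio 1.72, 0.97 to 2.54), against 4.91% of 6903 genes higher and 1.14% lower. Without cells whose names recur, no member was past the threshold there, with 1 tested. In WT imatinib against WT untreated only 3 members then reached the expression floor, and all 3 were lower, given without a share over all genes. The log2 ratios of the 5 members given above were between -3.91 and -1.05.

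Elane-positive cells numbered 646, 3392, 877 and 4046 in the same order. Elane was also seen in 3 of the 75 WT and 3 of the 107 CML untreated cells with T cell markers. With imatinib it was seen in 10 of 19 WT and 46 of 232 CML cells with erythroid markers (median depths 1164 and 2473.5 UMIs), and in 60 of 141 WT and 116 of 229 CML cells with mast and basophil markers (1329 and 1413 UMIs). These shares are below the 81.0% and 78.7% of all kept cells but above those in the untreated cells with T cell markers. Within the class the neutrophil list summed to 75.4 and 132 CPM in WT and CML untreated cells and to 3827 and 5731 CPM with imatinib. Socs3 was higher in CML than in WT untreated Elane-positive cells, at 59.2 against 24.2 CPM (2.45-fold, 1.97 to 3.06), where 1.66% of the 8451 genes tested were higher and 0.603% lower, and Socs3 was the only one of 4 tested members. With imatinib, Socs3 and Pim1 were lower in both genotypes, 2 of 4 tested members in CML (5.94% of 9180 genes lower, 10.3% higher) and 2 of 3 in WT (3.33% of 8690 genes lower, 7.45% higher). Socs3 stood at 6.31 CPM in WT imatinib and 8.58 CPM in CML imatinib Elane-positive cells, and Pim1 at 180 and 229 CPM, against 712 and 1068 CPM untreated.
Socs2, Cish and Pim2 were already low in untreated Elane-positive cells, at 7.42, 6.70 and 17.2 CPM in WT and 10.2, 6.46 and 18.5 CPM in CML, and with imatinib Pim2 was 1.89-fold (WT) and 1.92-fold (CML) lower. The difference of the responses in this class was 0.70 for Socs2 (-0.15 to 1.54) and 0.92 for Cish (-0.10 to 1.95), and both intervals include 0. Without cells whose names recur, the log2 ratio of Pim2 in WT was -0.49. In CML imatinib against WT imatinib Elane-positive cells none of the members was past the threshold, with 1 tested, against 1.79% of 8916 genes higher and 0.146% lower.

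Hlf-positive cells numbered 489 and 654 in the untreated and 115 in each of the imatinib libraries, so the latter values rest on few UMIs. Hlf was also seen in 3 of the 75 WT and 10 of the 107 CML untreated cells with T cell markers. Of the Hlf-positive cells, 11.5% in WT and 18.7% in CML also held an Elane UMI without treatment, and 60.9% and 60.0% with imatinib. A list of 6 granulocyte-monocyte progenitor genes summed within the class to 2743 and 2095 CPM in WT and CML untreated cells and to 20661 and 9257 CPM with imatinib. Pim1 stood at 966, 314, 1251 and 167 CPM, and Socs3 at 74.8, 13.2, 119 and 11.9 CPM, on 3 and 5 UMIs in the imatinib libraries. In the WT imatinib library Socs1 and Cish had 0 UMIs in Hlf-positive cells, which allows up to 13.2 CPM and thus gives no fold. At least 2-fold lower with imatinib were 4 of 5 tested members in CML and 4 of 4 in WT, but 34.4% of 6127 and 23.2% of 3941 genes were as well, with 7.26% and 2.36% higher. For Socs2 in WT, on 2 UMIs, the interval includes no difference. In the untreated libraries none of 5 was apart (2.87% of 8004 genes higher, 0.325% lower). Between the imatinib libraries 0 of 1 tested was (24.6% of 1519 genes higher, 7.24% lower).

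**Figure D3:**
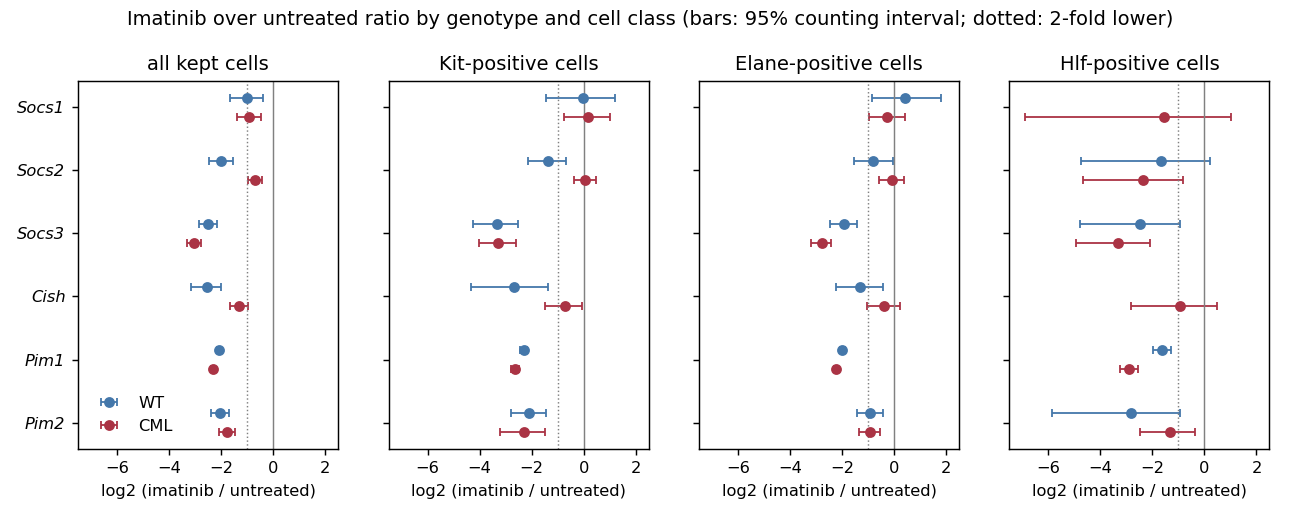
Log2 ratio of imatinib over untreated (x axis) for each gene (y axis) in WT and CML mice, in all kept, Kit-positive, Elane-positive and Hlf-positive cells. Bars are 95% counting intervals, the solid line marks no difference and the dotted line 2-fold lower; a gene with 0 UMIs in a library is not drawn. Socs3 and Pim1 lie left of the dotted line in every panel and genotype.

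Within a library, the members were compared between Hlf-positive and Elane-positive cells, leaving out cells positive for both. In both untreated libraries all 6 members were higher in the Hlf-positive cells. In WT untreated cells (433 Hlf-positive, 590 Elane-positive) Pim2 stood at 69.2 against 15.0 CPM, Socs2 at 34.3 against 7.52 CPM and Socs3 at 87.3 against 23.6 CPM. In CML untreated cells (532 and 755) Pim2 stood at 58.9 against 14.7 CPM, Socs2 at 46.0 against 9.75 CPM and Socs3 at 129 against 53.7 CPM. Pim1 differed less, at 1024 against 707 CPM in WT and 1344 against 1084 CPM in CML untreated cells, and only for Socs1 in CML did the interval include no difference. Untreated cells without Elane, Hlf or Kit UMIs were above these Hlf-positive cells for Cish and Socs1 and below them for Pim2, in both genotypes. Cish stood there at 38.7 against 13.2 CPM in WT and 46.9 against 22.5 CPM in CML, and Pim2 at 45.5 against 69.2 and 40.4 against 58.9 CPM. Socs2 was below as well, but close in WT (31.4 against 34.3 CPM). Socs3 (51.3 against 87.3 CPM) was lower and Pim1 (1096 against 1024 CPM) higher in WT. In CML they were nearly level, at 128 against 129 CPM and 1354 against 1344 CPM. No intervals were taken for these differences. Most of the untreated cells with T cell markers, which were high in Cish, fall among the cells without Elane, Hlf or Kit UMIs.
The Hlf-positive and Elane-positive cells differed in depth as well, with medians of 3400 and 6089.5 UMIs in WT and 5132.5 and 6959 in CML untreated cells. In the imatinib libraries only 45 and 46 Hlf-positive cells without Elane remained, and 4 of the 12 values there were 0 UMIs. Pim1 in WT (663 against 178 CPM) and Pim2 in CML (37.1 against 9.81 CPM) were higher in the Hlf-positive cells, and Pim1 in CML, at 83.5 against 228 CPM, was lower. The intervals of the other ratios included no difference. Cells with at least 3 UMIs from 3 genes of a stem cell list of 7, which includes Hlf, Mecom and Procr, had Socs2 at 48.9 CPM (34.3 to 67.7) in 144 WT untreated and 40.9 CPM (32.7 to 50.6) in 223 CML untreated cells.

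**Figure D4:**
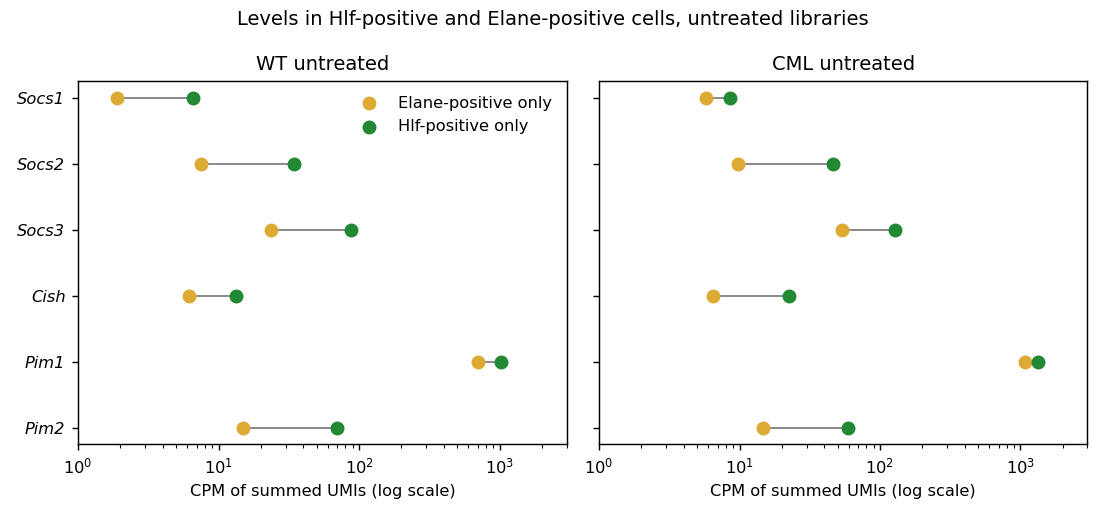
Level of each gene (y axis) in CPM on a log scale (x axis) in cells positive for Hlf only and for Elane only, in the WT untreated and CML untreated libraries. The Hlf-positive value is the higher one for all 6 genes in both libraries, with Pim2 and Socs2 spread widest and Pim1 least.

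Depth per cell differed between the libraries, so the share of cells with a UMI was also taken after thinning each cell to 500 UMIs. Pim1 was then seen in 35.3% of WT untreated, 10.1% of WT imatinib, 39.2% of CML untreated and 9.96% of CML imatinib cells; unthinned, the shares were 79.0%, 21.4%, 83.1% and 17.4%. Socs3 was seen in 2.84%, 0.693%, 4.68% and 0.759% of the thinned cells, and in 10.9%, 1.24%, 20.2% and 1.25% unthinned. The share was lower with imatinib in 12 of the 12 pairs of member and genotype, also without thinning and at 1000 UMIs. No cell type that should lack the 6 genes was defined here, so these shares are given without a background. The lowest Socs3 level among the larger marker groups was in cells with erythroid markers, 1 UMI in 232 CML imatinib cells (0.567 CPM, median 2473.5 UMIs) beside 11.5 CPM in all kept cells of that library.

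**Figure D5:**
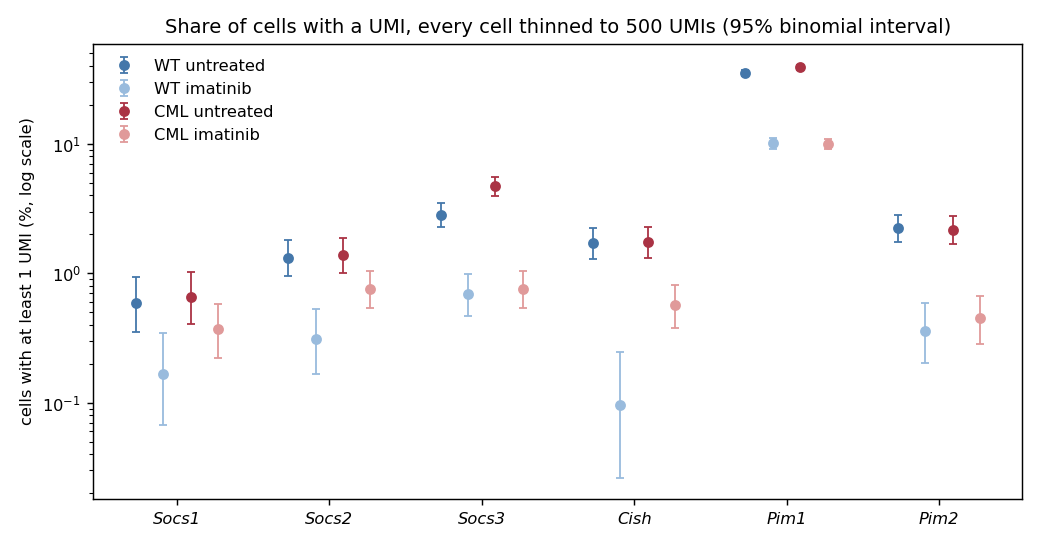
Share of cells with at least 1 UMI of each gene (y axis, percent on a log scale) after thinning every cell to 500 UMIs, by library, with exact 95% binomial intervals. Both imatinib libraries lie below the untreated library of their genotype for each of the 6 genes, and Pim1 is seen in 35.3% and 39.2% of untreated against 10.1% and 9.96% of imatinib cells.

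The members did not all occur in the same cells. After thinning to 1000 UMIs, Socs2 was seen in 18.8% (10.9 to 29.0) of the 80 WT untreated cells with Cish and in 2.51% (1.97 to 3.14) of those without. In CML untreated cells it was seen in 10.3% (5.24 to 17.7) of 107 cells with Cish and 2.94% (2.36 to 3.62) of the others. Socs1 and Cish likewise shared cells, with Cish in 27.3% (13.3 to 45.5) of 33 WT and 14.3% (5.43 to 28.5) of 42 CML cells with Socs1, against 2.37% and 3.38% of those without. These shares pool all cell types, and the cells with T cell markers were high in Cish, Socs2 and Socs1. The part that those cells play in the shared detection was not tested.
Other pairs shared cells as well, Socs3 with Pim1 among them. Socs3 was seen in 6.48% (5.31 to 7.81) of WT untreated cells with Pim1 against 3.16% (2.32 to 4.19) of those without, and in 10.1% (8.69 to 11.6) against 5.83% (4.62 to 7.25) in CML. It was also seen in 13.4% (8.16 to 20.4) of WT untreated cells with Pim2 against 4.49% of those without, and in 12.4% (6.94 to 19.9) against 8.08% in CML. In WT untreated cells with and without Pim1, Socs2 was seen in 3.88% and 1.92% and Cish in 3.49% and 1.72%; in CML the shares were 3.59% and 2.69%, and 3.88% and 3.07%. With Cish, Socs3 did not separate beyond counting error, at 7.50% (2.80 to 15.6) against 4.81% in WT and 12.1% (6.63 to 19.9) against 8.10% in CML. In CML untreated cells Socs3 was seen in 33.3% (19.6 to 49.6) of the 42 cells with Socs1 and in 7.89% of the others, whereas in WT it was 3.03% of 33 and 4.90%. The UMIs of the sparse members sat in few cells: the 31 richest cells, 1% of the library, held 55.6% of Socs1, 35.6% of Cish and 6.44% of Pim1 UMIs in WT untreated cells.

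Across 16 profiles, the 4 libraries each split into 4 classes that do not overlap (Elane-positive, Hlf-positive without Elane, Kit-positive without either, and all others), the members differed in how alike they were. The correlation of log2(CPM + 1) was 0.83 between Socs3 and Pim1, 0.77 between Socs3 and Pim2 and 0.72 between Socs1 and Cish, but 0.12 between Cish and Pim2 and -0.10 between Socs1 and Pim2. Socs2 and Cish, which shared cells in the untreated libraries, correlated at 0.37 across profiles, below Socs2 with Socs1 (0.62) and with Pim1 (0.59). The profiles share libraries and depth, so these values are a description without a test. Some profiles are also small: Hlf-positive without Elane held 45 WT imatinib cells (39238 UMIs) and 46 CML imatinib cells (215624 UMIs). Socs1 stood at 0 in both of these, Cish at 0 in the WT one and Socs2 at 0 in the CML one. Such zeros weigh on the correlations here and on the nearest genes below, and how much was not tested. Among 6825 genes with a mean of at least 20 CPM, the profiles most like Pim1 were those of Mef2c (0.95), Zfp36 (0.94) and Fos (0.94), and the last 2 are early response genes. The nearest to Socs3 were Tcf12 (0.95), Il1r1 (0.94) and Dynll2 (0.93), to Pim2 Tsc22d2 (0.93), Ddx27 (0.91) and Ptp4a3 (0.90), and to Socs2 Swt1 (0.94), Phtf2 (0.92) and Chic2 (0.91). Cish was most like Tmem64 (0.92), Gnb4 (0.92) and Cttn (0.91), and Socs1 most like Arl4c (0.87), Slc23a2 (0.86) and Dpysl2 (0.86).

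The rest of the pathway was described by 5 lists in all kept cells. Over all genes tested, 7.96% were lower and 11.5% higher with imatinib in CML (median log2 ratio 0.01), and 6.72% and 8.36% in WT (median -0.03). Between the untreated libraries 0.729% were higher in CML and 0.381% lower, and between the imatinib libraries 3.82% and 0.208%. The list counts below are to be read beside these shares. Of 10 kinases and STATs, none was at least 2-fold apart in any of the 4 comparisons, with medians between -0.12 and 0.12. Stat5b itself stood at 89.9 CPM in WT untreated, 47.7 in WT imatinib, 81.9 in CML untreated and 56.1 CPM in CML imatinib cells, log2 ratios with imatinib of -0.91 in WT and -0.55 in CML. Jak2 was at 50.6 against 33.7 CPM in CML imatinib and untreated cells (log2 ratio 0.59).
None of 9 other brakes, among them Ptpn6, Sh2b3, Cbl and Socs4 to Socs7, was 2-fold apart either. Ptpn6, a phosphatase that ends receptor signalling, was higher by 0.63 on the log2 scale with imatinib in CML and by 0.53 in WT.

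Of 13 other STAT5 targets, 7 were lower and 2 higher with imatinib in CML (median of the 12 tested -1.14), and 6 lower and 1 higher in WT (median of 12 tested -0.98). In CML these included Ccnd1, a G1 cyclin, at 57.6 CPM untreated and 11.0 CPM with imatinib (log2 ratio -2.39, -2.69 to -2.09), and the survival gene Mcl1 at 773 and 164 CPM (log2 ratio -2.23). Bcl2 was lower by 1.49 and Osm by 1.57 on the log2 scale. In WT, Ccnd1 stood at 60.1 and 10.2 CPM and Mcl1 at 435 and 149 CPM.
Between the untreated libraries none of the 11 tested was 2-fold apart, and Mcl1 came nearest, higher in CML by 0.83 on the log2 scale. None of 12 was 2-fold apart between the imatinib libraries.
Of 10 cytokine receptors, 3 were higher and 3 lower with imatinib in CML, and 3 higher and 1 lower in WT. Csf2ra, the GM-CSF receptor alpha chain, was among the higher ones, at 13.4 CPM untreated and 70.5 CPM with imatinib in CML and at 19.7 and 72.3 CPM in WT. Epor, the erythropoietin receptor, was the 1 receptor apart between the imatinib libraries, at 23.7 CPM in CML and 1.46 CPM in WT; a list of 11 erythroid genes, of which it is one, summed to 3522 and 96.3 CPM there.
The early response list was lower with imatinib in 14 of 15 genes in both CML (median -2.40) and WT (median -1.72), with 0 of 13 tested apart between the imatinib libraries. Egr1 stood at 823 CPM in CML untreated and 30.9 CPM in CML imatinib cells (log2 ratio -4.73) and at 419 and 33.6 CPM in WT. Zfp36 stood at 2194 and 232 CPM in CML and at 1337 and 227 CPM in WT. The early response list thus moved in the same direction as Socs3 and Pim1 in all 3 comparisons in which it moved.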

How the data were processed

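Libraries of sorted mouse LSK cells were made with inDrop, per the labels' protocols, with 1 library for each of 4 groups. Each deposited table holds genes by cells as a normalized signal in which cells have a common total of 2839 or slightly less. Partek 8.0, Bowtie 1.1.1 and the build GRCm38 are listed in the submitters' processing notes; their roles are not given in the sources used here. From the deposited signal, whole counts were recovered by dividing each cell by its smallest value above 0, and 100% of entries came out whole within 0.02. Cells were taken by column position, because the headers are 1 name longer than the rows are wide.

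Cells with at least 500 UMIs, at least 200 genes and at most 20% mitochondrial UMIs were kept. UMIs were summed per gene and library or class and scaled to CPM. Doublets were not called; the 5% of cells richest in UMIs were left out as an alternative. Levels have exact Poisson, shares exact binomial (Clopper-Pearson) and ratios exact conditional binomial intervals; differences of responses have normal-approximation intervals. All cover counting error only. A count of 0 was taken to allow 3 counts. Classes need 1 UMI of Kit, Elane or Hlf and overlap. The threshold for cells with markers (3 UMIs from 3 genes) was set after levels had been seen. The scripts were tested on simulated data. TMM factors came from edgeR 4.0.16, and numpy 2.4.6 and scipy 1.17.1 were used.

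The members, lists and tests were chosen with earlier results of these data known. Named beside the members are, from each list, up to 4 genes with at least 20 CPM and the largest absolute log2 ratio in a comparison, and the 3 genes most correlated with each member. A gene that this rule names is not reported here. Alternatives were 12 chosen with the design and 3 added after seeing the data (without cells with mast and basophil markers, with T cell markers, or with recurring names).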

Additional observations from a re-analysis of the deposited data

Results flagged for a closer look

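Of the imatinib responses, 3 had opposite signs in the 2 genotypes, and none of these differences was tested. In Kit-positive cells Socs2 had a log2 ratio of imatinib over untreated of 0.05 in CML and -1.37 in WT, a difference of 1.41 (0.62 to 2.21). Without the cells with mast and basophil markers the ratios were -1.76 and -1.95, a difference of 0.19. Without cells whose names recur the difference was 1.14 (-0.05 to 2.33). In Kit-positive cells Socs1 had ratios of 0.18 in CML and -0.04 in WT, a difference of 0.22 (-1.23 to 1.68). In Elane-positive cells Socs1 had ratios of -0.26 in CML and 0.41 in WT, a difference of -0.67 (-2.03 to 0.68), on 8 to 45 UMIs per library. The intervals of both Socs1 differences include 0.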

How the results depend on the processing

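No paired analysis was possible because each group had 1 library. Of 245 recomputed counts, 202 were within 1.5 times the count reported and 43 were not; of 1313 recomputed log2 ratios of single members, 1122 stayed inside the counting interval. Of the ratios past the threshold 3 changed sign; sign changes of ratios short of it, such as those under TMM scaling, are not among these 3. The numbers of members past the threshold that moved were these, given without shares over all genes. For CML imatinib against WT imatinib in all kept cells (1 reported) the number was 2 with no cell filter, with totals without ribosomal, mitochondrial and haemoglobin genes, and without the top 5% of cells, and 0 after thinning to 500 UMIs, without mature-cell marker cells, without mast and basophil marker cells, and with a floor of 50 CPM. In Kit-positive cells of that comparison (1 reported) it was 0 after either thinning, without mature-cell or mast and basophil marker cells, with the 50 CPM floor, with 2 UMIs of the class gene, and without shared names. In Elane-positive cells (0 reported) it was 1 with the reduced totals, with the mean of single-cell CPM, without the top 5% and without shared names, and in Hlf-positive cells (0 reported) 1 lower with TMM and 1 higher with 2 UMIs of the class gene. For CML imatinib against CML untreated, the 50 CPM floor gave 2 in all kept cells (4 reported); Kit-positive cells (3 reported) gave 5 without mature-cell or mast and basophil marker cells and 1 when classes too were thinned; either thinning gave 1 in Elane-positive (2 reported) and in Hlf-positive cells (4 reported). For WT imatinib against WT untreated, the 50 CPM floor gave 1 in all kept cells (5 reported), 2 in Kit-positive (5 reported) and 1 in Elane-positive cells (2 reported); either thinning gave 1 in all 3 classes (5, 2 and 4 reported); without shared names the numbers were 3, 1 and 2. In all these alternatives for imatinib against untreated cells, every member that still reached the floor was lower, so the smaller numbers go with fewer members tested. The higher Socs3 of CML untreated Elane-positive cells was not called (0 for 1) after either thinning, with 1 member tested. The pathway list genes apart between the imatinib libraries went from 1 to 0 with the 50 CPM floor. The reversed ratios, all for WT imatinib against WT untreated with classes and levels thinned to 500 UMIs, were 0.64 for Socs2 in Kit-positive, 0.031 for Socs3 in Elane-positive and 0.40 for Socs3 in Hlf-positive cells; thinning leaves few UMIs, and a stricter floor fewer genes tested. Otherwise the cause was not tested.

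With TMM scaling the median over all genes shifted by -0.17 (CML against WT untreated), -0.32 (CML imatinib against untreated), -0.25 (WT imatinib against untreated) and -0.24 (CML against WT imatinib) on the log2 scale. Genes at least 2-fold higher and lower went from 65 and 34 to 46 and 62, from 1098 and 760 to 605 and 1508, from 769 and 618 to 525 and 1140, and from 350 and 19 to 231 and 53. Pim2 in CML imatinib against WT imatinib cells changed from 0.09 to -0.15 and Pim1 from 0.16 to -0.07. Genes lower in CML imatinib than in WT imatinib cells (19 reported) became 41 with the mean of single-cell CPM, and genes higher (350 reported) became 186, with 112 after thinning, 158 without the top 5% and 164 without mature-cell marker cells. Without shared names 112 rather than 65 genes were higher in CML untreated than in WT untreated cells. A 50 CPM floor left 20 higher and 15 lower genes, 401 and 339, 310 and 223, and 91 and 7 in the 4 comparisons, and WT imatinib had 366 lower genes after thinning.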
